A study of Mus musculus with 6 samples.

Results

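The 39 genes described here carry the electrical and secretory machinery of the beta cell. They comprise 16 channel genes, 5 genes of calcium handling, 16 genes of vesicle fusion and 2 genes of cAMP synthesis, and were listed by symbol. Glucose metabolism in a beta cell raises ATP, which closes potassium channels built from Kir6.2 and the sulfonylurea receptor. The membrane then depolarizes, voltage-gated channels admit calcium, and calcium triggers SNARE proteins to fuse insulin granules with the plasma membrane. Cyclic AMP amplifies this last step. Genes of this machinery are shared with neurons and with other endocrine cells of the islet.

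Transcripts were measured on 1-colour microarrays in dispersed islet cells of male C57Bl/6N mice, with total RNA taken at 72 h. The exoNOD cells (3 arrays) were cultured with 50 µg/ml of exosomes, small vesicles that cells release, which CD4+CD25- T lymphocytes had shed into their medium; the donors were NOD mice, a strain prone to autoimmune diabetes. Control cells (3 arrays) received no exosomes, so exosomes of another origin were not among these groups. The cells are a mixture of islet cell types, and in such bulk RNA fewer cells of a type and less RNA per cell cannot be told apart. Per the series' design, islets and exosomes were prepared anew for each of 3 experiments.

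Of the 39 genes, 38 had a probe whose RefSeq accession maps to the symbol, and the brightest probe stood for each gene. Scn9a, a sodium channel, had none and was not analysed here. The single probe of Ryr2, the calcium release channel of the endoplasmic reticulum, was not well above background on any array and was not tested. The other 37 were tested among 25790 genes, 36 of them well above background on all 6 arrays. A level is the log2 signal relative to the 75th percentile of its array, and a change is the exoNOD mean minus the control mean with n = 3 arrays each. Levels of different probes cannot be set against each other.

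The arrays were alike in brightness. The 75th percentile of signal lay between 869 and 890 on exoNOD arrays and between 812 and 883 on control arrays, with 0 saturated spots. Slides were inferred from the scan times alone. By these times, exoNOD replicate 1 was grouped with the 3 controls (called slide 1), and exoNOD replicates 2 and 3 with each other (called slide 2). Beta cell markers were all well above background. Their summed signal, in units of the array's 75th percentile, was 1074 to 1095 on exoNOD arrays and 1107 to 1175 on control arrays, and 9 of 10 markers had a lower mean in exoNOD cells. Of these, 6 fell in the fit that has the replicate number as a block, among them Nkx6-1 (log2 change −0.42, limma adjusted p = 0.0136 with the block). The part of the beta cell markers in the values below was not tested. Markers of alpha cells, which also secrete by calcium-triggered exocytosis, had 5 of 9 members lower, and their summed signal was 400 to 407 on exoNOD arrays and 428 to 445 on control arrays. Of the other endocrine markers, both PP cell markers (Ppy −0.35, Pyy −0.40) and 4 of 5 delta cell markers had a lower mean. With the block Pyy fell (limma adjusted p = 0.0445), and none of the 4 lower delta cell markers passed. The other delta cell marker, Cckbr, rose with the block (0.77, limma adjusted p = 0.0398), with all exoNOD arrays above all controls. The summed signal also did not overlap for markers of duct cells (4.37 to 6.81 on exoNOD arrays, 2.17 to 4.03 on control arrays), endothelial cells (9.03 to 9.68 on exoNOD arrays, 7.51 to 8.60 on control arrays) and macrophages (18.8 to 20.3 on exoNOD arrays, 24.4 to 27.3 on control arrays), and their part was not tested.

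None of the 37 tested genes passed the threshold of 0.05 in limma without a block, where 0.105% of all genes passed (0.101% higher and 0.00388% lower). That is 26 genes higher and 1 lower, against 20 and 12 under quantile normalization and 18 and 13 in the authors' values. Adjusted p values of the 37 ran between 0.0825 and 0.997. At an unadjusted p under 0.05 there were 7 of them, against 16.6% of all genes. Of these 6 were lower (16.2% of the 37, against 3.39% of all genes) and 1 was higher (2.70%, against 13.3%). Equal replicate numbers were treated as pairs in a second fit, since their arrays deviated from the group means together. Pairs 2 and 3 each join arrays of different slides, so the block does not remove a difference between slides. With this replicate block Snap25 and Atp2a3 fell, Scn8a rose and the other 34 did not pass, where 8.72% of all genes passed. That is 5.41% of the 37 lower, against 1.83% of all genes, and 2.70% higher, against 6.89% of all genes. All 3 calls were lost without pair 2, where the block fit called 0 of the 37 genes (1.76% of all genes), and the adjusted p was 0.0554 for Snap25, 0.0854 for Atp2a3 and 0.0698 for Scn8a. Without pair 3 the block fit no longer called Snap25 (limma adjusted p = 0.0717) or Atp2a3 (0.327). It called Scn8a, Vamp2 and Scn3a there, where 6.74% of all genes passed. Without pair 1 it called Snap25, Atp2a3, Scn8a, Vamp2 and Adcy5, where 16.2% of all genes passed. With the slide as a block limma called 0 genes of all tested, 930 of them at an unadjusted p under 0.05. Slide 2 holds no control, so that fit compares exoNOD replicate 1 alone with the 3 controls.

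The group mean was lower in exoNOD cells for 27 of the 37 genes (73.0%), and for 44.6% of all genes tested. The median change was −0.13 for the 37 genes and 0.04 for all genes. The lower share depended on the scaling, with 29 of the 37 lower under quantile normalization (54.1% of all genes), 30 when arrays were set to equal medians (62.1%) and 19 when normexp corrected the background (32.0%). The difference between the 2 medians was −0.17 as reported, −0.14 under quantile normalization, −0.17 at equal medians and −0.40 under normexp.

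**Figure D1:**
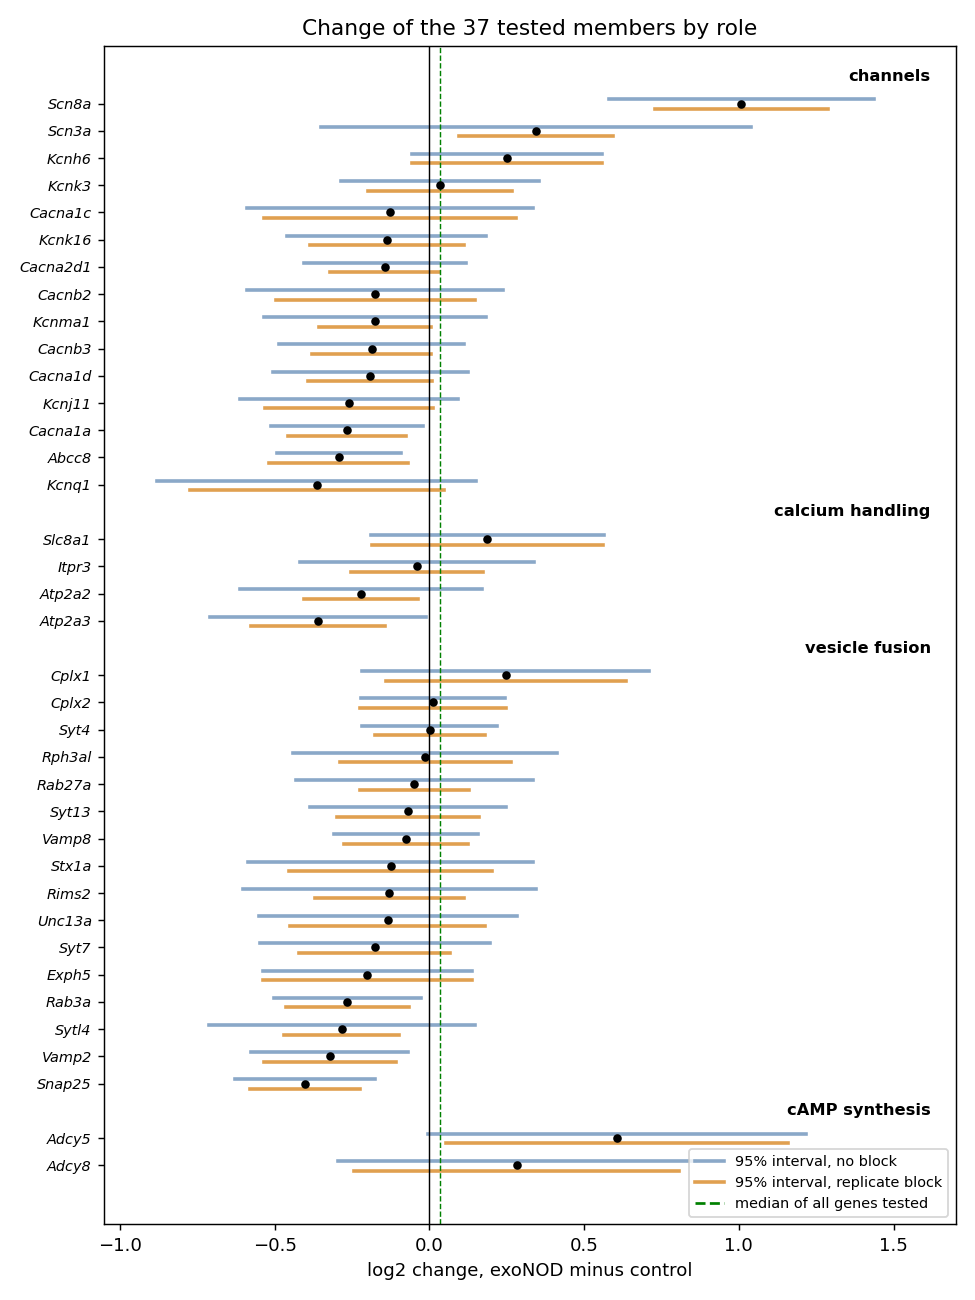
Log2 change (exoNOD minus control, x axis) of the 37 tested genes (y axis), ordered within each role. Points are the changes, bars the 95% intervals without (blue) and with (orange) the replicate block, and the dashed line is the median of all genes tested (0.04). Most channel and fusion genes lie left of 0 with intervals that reach it, and Scn8a lies apart at 1.01.

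Of the 16 channel genes 15 were tested, 11 with a lower and 4 with a higher mean in exoNOD cells, and the median change was −0.18. Without the block none passed. With it Scn8a rose and 14 did not pass.

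Scn8a encodes Nav1.6, a voltage-gated sodium channel best known from neurons. Its level was 1.97, 2.53 and 2.79 on exoNOD arrays 1, 2 and 3, against 1.39, 1.37 and 1.51 on control arrays 1, 2 and 3. All exoNOD arrays thus lay above all controls. The signal was 2.01-fold higher in exoNOD cells (log2 change 1.01 ± 0.19 SE, limma adjusted p = 0.0825), with an adjusted p of 0.00196 with the replicate block. On slide 1, exoNOD replicate 1 exceeded the control mean by 0.55, and replicates 2 and 3 lay further up. Without exoNOD replicate 1 the change was 1.24 and passed without the block (limma adjusted p = 0.00494), where 4.93% of all genes passed. The exoNOD arrays left in that fit are on slide 2 and all controls on slide 1, so group and slide cannot be told apart there. The other kept probe did not share this difference. That probe has the same RefSeq accession, was also well above background on all arrays, and had −3.43, −3.12 and −3.53 on exoNOD arrays and −3.29, −2.96 and −3.35 on control arrays, a difference of −0.16. Averaged over both probes the change was 0.42 (adjusted p = 0.228).

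Scn3a, the sodium channel Nav1.3, varied more within each group than between the groups. Its level was 0.16, −0.72 and 0.15 on exoNOD arrays and −0.47, −1.02 and 0.05 on control arrays. The exoNOD array was the higher in each of the 3 pairs, by 0.63, 0.30 and 0.10, while the groups overlapped (log2 change 0.34, limma adjusted p = 0.584, or 0.0817 in the block fit). Leaving out 1 array at a time, the Scn3a change ran between 0.07 and 0.64, lowest without control replicate 2 and highest without exoNOD replicate 2. Both kept probes of Scn3a had a positive difference, 0.34 and 0.24. Both sodium channels are also neuronal genes, and of the 10 markers of Schwann cells and neurons 8 had a higher mean in exoNOD cells, of which Nefl and S100b passed the filter through the exoNOD group alone. Their summed signal was 8.63 to 9.42 on exoNOD arrays and 7.43 to 9.40 on control arrays, and their part in the sodium channel values was not tested.

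Abcc8 encodes the sulfonylurea receptor SUR1, the regulatory subunit of the ATP-sensitive potassium channel. It had 5.98, 5.83 and 5.88 on exoNOD arrays, against 6.18, 6.20 and 6.20 on control arrays. The groups did not overlap, and the SD of the control arrays was 0.01. The log2 change was −0.29 ± 0.09 SE (95% interval −0.49 to −0.09, adjusted p = 0.214, or 0.0969 in the block fit). Quantile normalization together with the block brought Abcc8 past the threshold (0.0377), and so did the authors' values with the block (0.0371). The second Abcc8 probe separated the groups as well, with 5.46, 5.25 and 5.31 on exoNOD arrays against 5.70, 5.71 and 5.71 on control arrays. Kcnj11, which encodes the pore Kir6.2, had −2.60, −2.32 and −2.67 on exoNOD arrays and −2.22, −2.13 and −2.47 on control arrays. These values overlapped (log2 change −0.26, adjusted p = 0.416), and the second Kcnj11 probe had a difference of the opposite sign, 0.20.

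Among the voltage-gated calcium channels, Cacna1a, the pore of P/Q-type channels, had 0.72, 0.50 and 0.75 on exoNOD arrays, against 1.00, 0.88 and 0.88 on control arrays. The exoNOD arrays lay below all controls (log2 change −0.27 ± 0.11 SE, adjusted p = 0.278, 0.0806 with the block). The other Cacna1a probe had a difference of −0.08 with overlapping groups. Cacna1d, the L-type pore Cav1.3, had 0.31, 0.52 and 0.03 on exoNOD arrays and 0.45, 0.59 and 0.39 on control arrays (log2 change −0.19, adjusted p = 0.498). Cacna1c, the L-type pore Cav1.2 and a main calcium entry path of mouse beta cells, had −4.46, −4.08 and −4.10 on exoNOD arrays and −4.20, −4.29 and −3.77 on control arrays (−0.13, 0.771). Both L-type pores overlapped between groups. The auxiliary subunits Cacna2d1 (−0.14), Cacnb2 (−0.18) and Cacnb3 (−0.19), which set the amount and gating of channels at the membrane, overlapped as well.

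Of the potassium channels that shape the resting potential and the end of an action potential, Kcnh6 separated the groups upward. This ether-a-go-go related channel had −3.16, −3.01 and −3.04 on exoNOD arrays, against −3.37, −3.27 and −3.32 on control arrays (log2 change 0.25 ± 0.14 SE, adjusted p = 0.376, 0.263 with the block). Its second probe separated them the other way, with −3.96, −4.27 and −4.20 on exoNOD arrays against −3.85, −3.89 and −3.90 on control arrays. The direction of Kcnh6 therefore depends on the probe, and the mean of both gave −0.0077. Kcnk16 (TALK-1, −0.14) and Kcnk3 (TASK-1, 0.04) form background potassium currents, Kcnma1 (the large-conductance calcium-activated BK channel, −0.18) helps to end the action potential, and Kcnq1 (−0.36) gives a slow voltage-gated current. These 4 overlapped between groups, with adjusted p between 0.437 and 0.915. All 3 Kcnma1 probes had a negative difference. The sign of Kcnk3 turned under quantile normalization (−0.029), at equal medians (−0.11) and in the authors' values (−0.031).

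Counted over the 37 genes, 7 had all exoNOD arrays below all controls (18.9%), as did 7.78% of all genes, and 2 had all exoNOD arrays above (5.41%), as did 14.6% of all genes. The groups did not overlap in either direction for 22.4% of all genes. The 7 are Abcc8, Cacna1a, Atp2a3, Snap25, Vamp2, Rab3a and Exph5, and the 2 are Scn8a and Kcnh6. The exoNOD array was the lower in all 3 pairs for 18 of the 37 genes (48.6%) and for 22.1% of all genes.

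**Figure D2:**
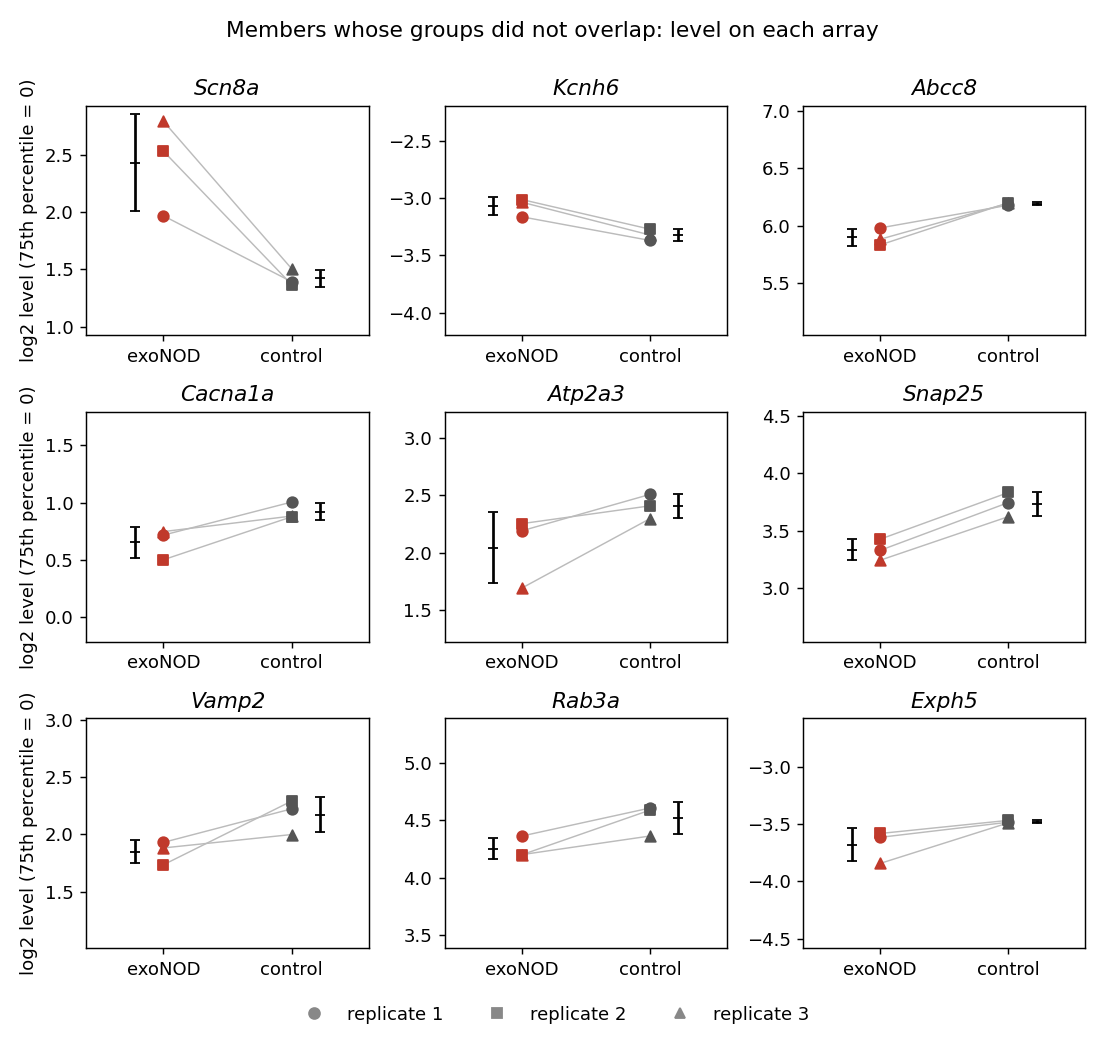
Log2 level (y axis, 75th percentile of the array = 0, each panel spanning 2 log2 units) of the 9 genes whose groups did not overlap, with exoNOD arrays (red) left and control arrays (grey) right. Symbols mark the replicate number, lines join equal numbers, and bars give mean ± SD (n = 3). Scn8a and Kcnh6 are higher on all exoNOD arrays and the other 7 lower, and Scn8a replicate 1 lies lowest of the exoNOD arrays at 1.97.

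The promoters of the 2 genes above all controls are shown because the probe used for each had a direction opposite to most of the group. The other kept probe of each of these genes had a negative difference. Promoters are RefSeq sequences of build GRCm38.p6, 5′ to 3′, from 250 bases before to 50 bases after the start, and 25 of the 39 genes matched. Capitals mark the letters of the motifs searched on both strands. These were the GC box GGGCGG (35.7% of all 32851 promoters hold it), CCAAT (37.4%), the TATA box TATAAA (13.6%), the E box CACGTG (7.15%), the cAMP response element TGACGTCA (1.79%), and CAGCACC (7.14%) and GGACAG (22.2%), the left and right parts of RE1, the element bound by the neuronal gene repressor REST. The first of the 2 Scn8a promoters (chr15:100870395-100870694, plus strand), printed here, holds none of these motifs, and the second holds 1 GGACAG on the minus strand. The Kcnh6 promoter (chr11:106007898-106008197, plus strand) holds 3 GC boxes and both RE1 parts on the same strand with 7 bases between them. The spacing was read from this promoter and not searched for beforehand. With 2 bases between them, the spacing of the full element, both parts are found in 12 of the 32851 promoters (0.0365%) and in 0 of the 25 genes. A match is a description of the letters and not of binding.
Scn8a promoter: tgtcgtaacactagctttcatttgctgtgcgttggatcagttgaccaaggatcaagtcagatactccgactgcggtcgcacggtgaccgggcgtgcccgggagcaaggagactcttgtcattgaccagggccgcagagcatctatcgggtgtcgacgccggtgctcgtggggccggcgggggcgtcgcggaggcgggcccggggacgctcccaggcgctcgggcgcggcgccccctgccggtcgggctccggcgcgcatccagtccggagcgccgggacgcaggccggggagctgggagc
Kcnh6 promoter: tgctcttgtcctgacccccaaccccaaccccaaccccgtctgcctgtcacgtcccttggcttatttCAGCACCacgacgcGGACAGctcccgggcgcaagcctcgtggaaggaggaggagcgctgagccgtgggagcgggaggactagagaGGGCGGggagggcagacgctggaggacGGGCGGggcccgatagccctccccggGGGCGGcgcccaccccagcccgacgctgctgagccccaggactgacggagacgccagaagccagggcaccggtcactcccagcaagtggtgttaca

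Of the 5 genes that move calcium between the cytosol, the stores and the outside, 4 were tested. The mean was lower in exoNOD cells for 3 and higher for 1, and the median change was −0.13. Without the block none passed, and with it Atp2a3 fell.

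Atp2a3 encodes SERCA3, a pump that returns calcium to the endoplasmic reticulum. It had 2.19, 2.25 and 1.69 on exoNOD arrays, against 2.51, 2.41 and 2.30 on control arrays. The exoNOD arrays lay below all controls, with replicate 3 the lowest. The log2 change was −0.36 ± 0.15 SE (limma adjusted p = 0.292), with 1.28-fold more signal in control cells, and the adjusted p was 0.0485 with the replicate block. Under quantile normalization (0.111) and in the authors' values (0.109) the block fit did not call it. Without exoNOD replicate 3 the change was −0.18.

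Atp2a2 encodes SERCA2, the more widely expressed pump of the same family. It had 2.33, 2.72 and 2.10 on exoNOD arrays and 2.62, 2.81 and 2.39 on control arrays. The exoNOD array was the lower in each pair, while the groups overlapped (log2 change −0.22 ± 0.17 SE, adjusted p = 0.525, 0.121 with the block). Leaving out 1 array at a time, the Atp2a2 change ran between −0.39 and −0.08. Its other probe had a difference of −0.41. Itpr3, an inositol trisphosphate receptor that releases stored calcium, had 2.64, 2.27 and 2.94 on exoNOD arrays and 2.74, 2.49 and 2.74 on control arrays. These groups overlapped, and the log2 change was −0.04 (95% interval −0.42 to 0.34).

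Slc8a1 encodes NCX1, which exports calcium in exchange for sodium. It had −4.02, −3.63 and −3.92 on exoNOD arrays and −4.10, −4.06 and −3.98 on control arrays (log2 change 0.19, adjusted p = 0.58). Its other probe, of another RefSeq accession, had −5.24, −5.52 and −5.59 on exoNOD arrays against −4.61, −5.21 and −5.02 on control arrays, all exoNOD arrays below all controls. The 2 probes thus differ in sign, and that of the brighter one turned under quantile normalization (−0.0051).

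The Atp2a3 promoter (chr11:72960919-72961218, plus strand) is shown as that of a gene that fell with the block. It holds 5 GC boxes and 1 GGACAG. The leftmost GC box and its neighbour overlap by 1 base, as do the rightmost and its neighbour, and the middle GC box stands apart.
Atp2a3 promoter: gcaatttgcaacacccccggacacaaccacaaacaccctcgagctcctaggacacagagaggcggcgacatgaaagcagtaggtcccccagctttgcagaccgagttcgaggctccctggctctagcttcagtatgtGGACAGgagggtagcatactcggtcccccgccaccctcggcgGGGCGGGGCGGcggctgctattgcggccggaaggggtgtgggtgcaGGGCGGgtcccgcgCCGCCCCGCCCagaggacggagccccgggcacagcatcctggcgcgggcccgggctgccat

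All 16 genes of vesicle fusion were tested, 13 with a lower and 3 with a higher mean in exoNOD cells, and the median change was −0.13. Without the block none passed, and with it Snap25 fell. In 4 of the 16, Snap25, Vamp2, Rab3a and Exph5, all exoNOD arrays lay below all controls, and in 0 they lay above, against 7.78% of all genes below and 14.6% above.

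Snap25, Vamp2 and Stx1a encode the SNARE proteins that pull granule and plasma membrane together. Snap25 had 3.33, 3.43 and 3.24 on exoNOD arrays, against 3.75, 3.83 and 3.62 on control arrays. Its exoNOD arrays lay below all controls by nearly the same step in each pair, −0.42, −0.41 and −0.38. The log2 change was −0.40 ± 0.10 SE (95% interval −0.63 to −0.18), with 1.32-fold more signal in control cells. The limma adjusted p was 0.145 without the block and 0.0156 with it. The block fit also called Snap25 under quantile normalization (0.0187) and in the authors' values (0.0187). On slide 1 alone, exoNOD replicate 1 differed from the control mean by −0.41.

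Vamp2, the SNARE of the granule membrane, had 1.93, 1.73 and 1.88 on exoNOD arrays, against 2.22, 2.29 and 2.00 on control arrays. The groups did not overlap (log2 change −0.32 ± 0.11 SE, adjusted p = 0.242, 0.0653 with the block). Stx1a, the syntaxin partner of Snap25, had −3.77, −3.67 and −3.30 on exoNOD arrays and −3.71, −3.51 and −3.14 on control arrays. Here the groups overlapped, and the log2 change was −0.12 (95% interval −0.59 to 0.34). Vamp8, a SNARE of granules that fuse soon after they reach the membrane, had a change of −0.08.

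Rab3a is a small GTPase on secretory granules. It had 4.36, 4.20 and 4.20 on exoNOD arrays, against 4.61, 4.59 and 4.36 on control arrays. The groups did not overlap, though exoNOD replicate 1 and control replicate 3 were almost level (log2 change −0.27 ± 0.10 SE, adjusted p = 0.269, 0.0915 with the block). The block fit called it under quantile normalization (0.0361) and in the authors' values (0.0317). The first of its 2 promoters (chr8:70754453-70754752, plus strand) is shown because it belongs to one of the genes below all controls, and it holds 2 GC boxes and 2 CCAAT boxes.
Rab3a promoter: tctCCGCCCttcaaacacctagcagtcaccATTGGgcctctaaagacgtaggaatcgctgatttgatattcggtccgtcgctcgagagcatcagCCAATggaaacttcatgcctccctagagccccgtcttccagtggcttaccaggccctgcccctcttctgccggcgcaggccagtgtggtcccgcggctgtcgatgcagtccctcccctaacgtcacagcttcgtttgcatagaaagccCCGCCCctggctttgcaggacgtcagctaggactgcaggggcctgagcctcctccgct

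Rab27a, a GTPase that recruits granules, had a change of −0.05. Its effector Sytl4 (granuphilin), which docks insulin granules, had 4.02, 3.79 and 3.48 on exoNOD arrays and 4.38, 4.06 and 3.70 on control arrays. The exoNOD array was the lower in each pair, while the groups overlapped (log2 change −0.28, adjusted p = 0.464, 0.0628 with the block). Leaving out 1 array at a time, the Sytl4 change ran between −0.45 and −0.12. Exph5, another Rab27 effector, had −3.62, −3.58 and −3.84 on exoNOD arrays, against −3.48, −3.47 and −3.49 on control arrays. Its groups did not overlap (log2 change −0.20, adjusted p = 0.505, 0.414 with the block), and its sign turned with normexp (0.54). Rph3al (Noc2), which binds Rab3 and Rab27, had −0.01.

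The groups overlapped for the remaining fusion genes. Among the synaptotagmins, a family that includes the calcium sensors of fusion, Syt7 had a change of −0.18, Syt13 −0.07 and Syt4 0.00. The priming factor Unc13a and the scaffold Rims2 each had −0.13. The complexins, which clamp and aid SNARE complexes, had 0.25 (Cplx1) and 0.01 (Cplx2), and the other 3 Cplx2 probes had differences between −0.24 and −0.03. Adjusted p values of the 10 fusion genes not given by array ran between 0.552 and 0.997.

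The adenylyl cyclases Adcy5 and Adcy8 make cAMP, and both were measured by dim probes. Adcy5 had −4.65, −3.59 and −4.06 on exoNOD arrays and −4.61, −4.89 and −4.61 on control arrays. ExoNOD replicate 1 lay among the controls and replicates 2 and 3 above them (log2 change 0.61 ± 0.27 SE, adjusted p = 0.302, 0.146 with the block). A second probe had a difference of 0.06. The other was well above background on 3 exoNOD arrays and 1 control array and so was kept through the exoNOD group alone; its difference of 0.90 is no support. Adcy8 had −6.05, −5.52 and −5.37 on exoNOD arrays and −6.20, −5.78 and −5.80 on control arrays (log2 change 0.28, adjusted p = 0.588). It was well above background on 3 exoNOD and 2 control arrays, so it passed the filter through the exoNOD group alone, which favours a higher mean there. Its groups overlapped.

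Of the 37 tested genes, 22 had 1 kept probe and 15 had more. In 10 of these 15 the probes shared a sign, and in 5, Cplx2, Kcnh6, Kcnj11, Scn8a and Slc8a1, they did not.

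**Figure D3:**
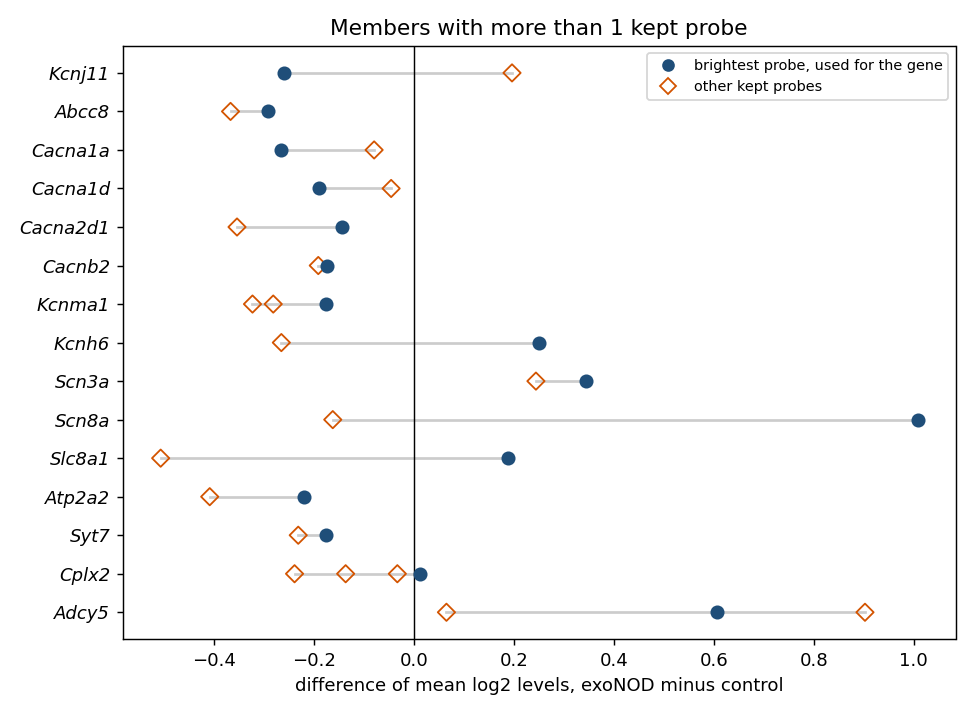
Difference of mean log2 level (exoNOD minus control, x axis) for each kept probe of the 15 genes with more than 1 (y axis); filled points are the brightest probe, used for the gene, and open diamonds the others. Both Abcc8 probes lie left of 0, while the probes of Scn8a, Kcnh6, Kcnj11, Slc8a1 and Cplx2 lie on both sides.

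Another 216 genes of the same pathways were listed by role and 197 were tested, of which 117 had a lower and 80 a higher mean in exoNOD cells (median change −0.05). The lower share was 59.4%, against 44.6% of all genes. Without the block 0 passed in limma, and at an unadjusted p under 0.05 there were 16 higher (8.12%, against 13.3% of all genes) and 17 lower (8.63%, against 3.39%). With it 16 fell (8.12%, against 1.83% of all genes) and 6 rose (3.05%, against 6.89%). Without pair 2 the block fit called 3 of the 197 lower and 0 higher. Of 54 channel genes 2 fell, among them Trpm5 (−0.58, a calcium-activated cation channel), and 2 rose, Kcnk2 (0.85, a background potassium channel) and Cacna1h (0.40, a T-type calcium channel). The limma adjusted p with the block was 0.00317 for Trpm5, 0.00527 for Kcnk2 and 0.0475 for Cacna1h.

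Of 33 calcium handling genes 4 fell with the block, namely Slc8a3 (−0.65), Itpr2 (−0.44), Tpcn1 (−0.36) and Atp2b2 (−0.36). Tpcn2, a lysosomal channel, rose (0.59). Over all genes tested, 1.83% fell and 6.89% rose with the block. Slc8a3 encodes the exchanger NCX3. It had 2.86, 2.62 and 2.73 on exoNOD arrays, against 3.35, 3.41 and 3.40 on control arrays. This gap was wide beside the spread within either group (limma adjusted p = 0.0601, 0.0025 with the block).

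Of 81 fusion genes 5 fell with the block, among them Snap23 (−0.52), Rab3b (−0.48), Stxbp5l (−0.41) and Sytl1 (−0.38), and 3 rose, among them Rab3c (0.38). Snap23, the ubiquitous relative of Snap25, had 3.36, 3.19 and 3.21 on exoNOD arrays, against 3.76, 3.79 and 3.78 on control arrays (limma adjusted p = 0.0814, 0.00559 with the block). Of the 29 genes tested in the cAMP list 5 fell with the block and 0 rose, where 1.83% of all genes fell and 6.89% rose. This list also holds receptors, G proteins, targets of cAMP and the phosphodiesterases that break it down. None of the 5 that fell is an adenylyl cyclase. The 5 that fell were the incretin receptors Glp1r (−0.45) and Gipr (−0.42), the protein kinase A subunits Prkacb (−0.40) and Prkar1b (−0.33), and the G protein subunit Gnao1 (−0.45). Without pair 2 the block fit called 0 of the 29 lower.

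**Figure D4:**
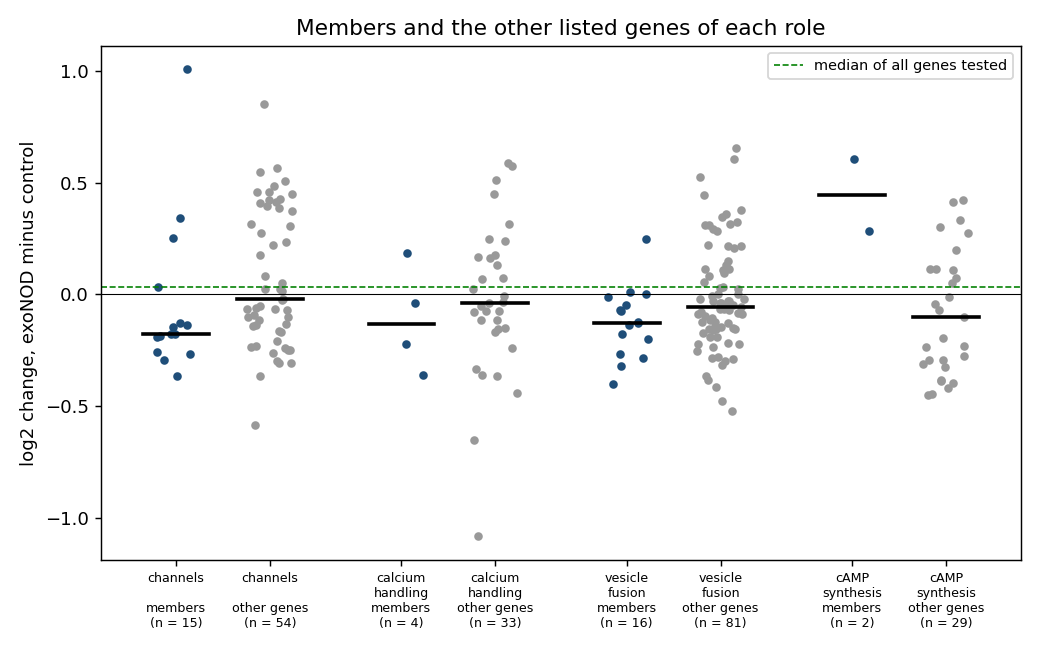
Log2 change (exoNOD minus control, y axis) of the tested genes described here (blue) and of the other listed genes of each role (grey); bars are medians and the dashed line is the median of all genes tested (0.04). The channel medians are −0.18 (blue) and −0.02 (grey), the fusion medians −0.13 and −0.06, and Scn8a stands highest at 1.01.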

How the data were processed

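Total RNA of islet cells was hybridized to 1-colour Agilent arrays. Per the file headers, the deposited processed signal is an intensity from Agilent Feature Extraction (version 11.0.1.1 per the submitters' processing notes), background-subtracted within the array without normalization across arrays. Spot flags, deposited as 0 or 1, are other values. The authors also deposited log2 values, with a median of 7.92 per array, which lie close to quantile-normalized signal (median absolute difference 0.00185 to 0.00325); how they were made is not given in the sources used here.

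Signals were taken as log2 minus the 75th percentile of the array. Between 0.381% and 0.618% of spots were left out as uneven or outliers. Of 39429 probes 31065 were kept, namely those that every array of 1 or both groups showed well above background. RefSeq accessions gave a symbol to 27234 probes (RefSeq annotation of GRCm38.p6), and 12195 kept their own name. The brightest probe stood for its gene. The test was limma's moderated test (limma 3.58.1, with lmFit and then eBayes, trend included), run under R 4.3.3 with data.table (version 1.17.8), with Benjamini-Hochberg adjustment over 25790 genes and a threshold of 0.05, and the fits were tested on simulated data. The number of arrays limits the precision.

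Deviations from the group means correlated at 0.366, 0.281 and 0.480 between arrays of equal replicate number and at −0.341 to 0.00873 otherwise, so the numbers were treated as pairs, which the labels do not state. Each group was centred on its own mean, so positive values at equal numbers bring, on balance, negative ones otherwise. The contrast between the 2 is thus not independent support for pairing. Alternatives were the replicate block, normexp, quantile and median scaling, the authors' values, other filters, the mean of probes, the slide as a block and leaving out each array. Normexp used median spot and background signals; mean signals were not used here. Genes given by array passed a fit, were among the 4 lowest p values of their role, or were Kcnj11, Abcc8, Cacna1c, Cacna1d, Snap25, Stx1a or Vamp2. Exph5 and Scn3a were added after their values were seen, and so were the second probes given by array. Other pathway genes are named where they passed, up to 6 per role, except some that are not reported here. Genes and lists were chosen with earlier results of these data known.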

Additional observations from a re-analysis of the deposited data

How the results depend on the processing

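With the replicate block, 1777 genes were higher and 472 lower, of them 1 higher and 2 lower among the genes described here, against 26 and 1 of all genes without it. With the block after quantile normalization the counts were 824 and 377 (1 and 3 of the genes described), and in the authors' values, chosen after seeing the data, 849 and 382 (1 and 3). Leaving out each pair, the block fit called 373 to 3447 genes higher and 81 to 724 lower, and 0 to 2 and 0 to 3 of the genes described. Without the block, normexp called 121 higher and 41 lower (1 of the genes described, Scn8a), quantile normalization 20 and 12, scaling by the median 12 and 1, and the authors' values 18 and 13. Limma called 0 genes without the filter on dim probes (4638 at an unadjusted p under 0.05) and 0 with the slide as a block (930), where 1 exoNOD array stands against 3 controls. Leaving out each array, 0 to 1213 genes were called higher and 0 to 59 lower, and 0 to 1 and 0 of the genes described. The largest count came without exoNOD replicate 1, where Scn8a passed. In that fit all exoNOD arrays are on slide 2 and all controls on slide 1, so group and slide cannot be told apart.

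The median change of the 37 genes was −0.056 with normexp, −0.28 after scaling by the median and −0.19 to −0.10 leaving out each array. The median of all genes was 0.35 with normexp and −0.11 after scaling by the median. Of the 37 genes, 20 kept their direction under the 11 alternatives that keep all arrays. Normexp turned the sign of Kcnj11 (0.30), Cacna1c (0.58), Cacnb2 (0.33), Kcnq1 (0.58), Stx1a (0.50), Syt4 (−0.15), Syt7 (0.12), Rph3al (0.42), Unc13a (0.38), Cplx2 (−0.21), Rims2 (0.14) and Exph5 (0.54). Quantile normalization, with or without the block, turned Kcnk3 (−0.029) and Slc8a1 (−0.0051), as did the authors' values with or without the block (−0.031 and −0.00030). Scaling by the median turned Kcnk3 (−0.11), Syt4 (−0.14) and Cplx2 (−0.13). The mean of probes turned Kcnh6 (−0.0077), Slc8a1 (−0.16) and Cplx2 (−0.10). The slide as a block turned Kcnk3 (−0.10), Syt13 (0.16) and Adcy8 (−0.12). Leaving out each array gave Cacna1c −0.23 to 0.031, Kcnk3 −0.054 to 0.13, Itpr3 −0.20 to 0.13, Stx1a −0.27 to 0.032, Syt4 −0.026 to 0.041, Syt13 −0.18 to 0.035, Rab27a −0.18 to 0.12, Rph3al −0.20 to 0.10, Unc13a −0.26 to 0.049, Cplx2 −0.049 to 0.067 and Rims2 −0.33 to 0.053. None of these turned values passed the threshold, and the cause was not tested.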
